A study of Mus musculus with 6 samples.

Results

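DNA replication and nucleotide synthesis genes were followed through sorted mouse T cells of the small intestine and the spleen. The members are a list of 41 genes, taken by name and without a cutoff on any measured value, and a gene was included where the array design gives its symbol to at least 1 probe. That was so for 39 of the 41 members, with 40 probes, of 19321 genes with a named probe in all. Rfc4, a subunit of the clamp loader, and Ccne2, a cyclin of S phase entry, were not analysed here.

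Toray 3D-Gene mouse oligonucleotide arrays, read with 1 dye, were used to measure RNA. All 6 arrays came from male C57BL/6 mice, with no transgene, deletion or treatment named in the labels. Young IEL CD4+ and young SP CD4+ T cells came from mice aged 5 weeks, and old IEL CD4+ and old SP CD4+ T cells from mice aged 89 weeks per the labels, while the methods section names an age a little below that. IEL are the T cells that lie between the epithelial cells of the small intestine, SP is the spleen, and CD3+CD4+ cells were sorted (purity over 98%). A pair of further arrays, also of old mice aged 89 weeks, carry the names IEL cd27cd28 and IEL others. How these 2 fractions were gated is not given in the labels, which mark both arrays as unused in the publication. Between 4 and 6 mice stood behind each group, and whether their cells were pooled is not stated.

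There was 1 array per group, so each difference given here is one between single arrays, without a test, a spread between animals or a replicate check. The log2 SD of 2 kinds of positive control spots, each repeated 24 times within an array, was 0.127 on average. This makes 0.180 for a difference of 2 arrays, and differences below that are called within spot error. The spread of the member probes themselves, many of them dim, was not measured, so a larger difference of a dim member may still be technical. Between 72.2% (old IEL) and 85.1% (others) of the probes were detected, meaning above the blank spots of the array. Between 4360 (old IEL) and 5261 (others) probes had a signal over 100. Young IEL was near old IEL, with 73.9% detected and 4580 over 100, and the part of this in the differences below was not tested. The signal is the normalised intensity, with a median of 25 over the detected probes of each array. A gene is called higher or lower past 2-fold, provided that its signal exceeded 100 on at least 1 of the arrays compared, the thresholds of the study. A gene can thus pass the minimum through the brighter array alone. The signals of different genes come from different probes and cannot be compared with each other.

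The 6 measured T cell markers, Cd4 and the CD3 chains among them, were detected on every array. On the other hand, genes of other cells were present too. The signal summed over 15 genes of the small intestinal epithelium was 988 on young IEL, 608 on old IEL, 510 on young SP and 566 on old SP, and 901 on cd27cd28 against 2744 on others. Reg3b, an antimicrobial lectin of the epithelium, had a signal of 446 on young IEL, 15.1 on old IEL, 26.9 on cd27cd28 and 1052 on others, and was not detected on either SP array. Other genes of this list were higher on old than on young IEL, such as Fabp2 (74.8 against 10.9), Cdh1 (61.1 against 20.3) and Krt18 (52.4 against 37.7). The sum over 6 myeloid genes lay between 129 and 193 on 5 arrays and was 948 on others, where Lyz2 alone had 711. The 4 measured B cell genes summed to between 57.2 and 138 and the 2 measured erythroid genes to between 26.7 and 38.4. Of the 2 measured CD8 genes, Cd8a had a signal of 127.8 on young IEL and 1535 on old IEL, while Cd8b1 had 643 and 231. The part of these cells in the results below was not tested. In bulk RNA, fewer cycling cells and less RNA of these genes per cell cannot be told apart.

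As background, a cell copies its genome in S phase, after origins have been licensed by loading the MCM helicase. The helicase is then activated and unwinds the DNA, primase and the DNA polymerases copy the strands behind a sliding clamp, and the fragments of the lagging strand are joined. The supply of deoxynucleotides and the packing of the copied DNA into chromatin rise at the same time, and transcription factors of the E2F family drive many of these genes in proliferating cells. Resting T cells hold most of them low until they are stimulated.

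The promoters of these genes were also searched for short words, and a link between a word and the array values was not tested. Promoter sequence, from 250 bases before to 50 bases after each annotated start, was taken from RefSeq (GRCm38.p6), where 34 of the 41 members had 39 promoters. The E2F words searched on both strands were TTTGGCGC, TTTCCCGC, TTTGCCGC and TTTCGCGC. At least 1 of them was found in 13 of the 39 member promoters (33.3%), against 2.26% of all 32851 promoters. The CCAAT box was found in 22 member promoters (56.4%) against 37.4%, and the CHR word TTTGAA in 4 (10.3%) against 17.9%. A match describes the letters only. The following stretches of 60 bases are shown for members that differed strongly between the IEL arrays, read 5′ to 3′ along the gene, with the E2F word in capitals in either direction. In Mcm5 and Mcm6 a pair of E2F words in opposite directions overlap, and the capitals cover both.
Mcm5: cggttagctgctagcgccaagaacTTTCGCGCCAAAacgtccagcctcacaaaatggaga
Mcm6: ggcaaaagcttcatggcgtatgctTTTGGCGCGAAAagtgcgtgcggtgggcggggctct
Mcm7: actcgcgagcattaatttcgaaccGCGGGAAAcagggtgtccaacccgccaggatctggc
Pola1: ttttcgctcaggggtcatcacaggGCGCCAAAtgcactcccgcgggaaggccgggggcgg
Cdc6: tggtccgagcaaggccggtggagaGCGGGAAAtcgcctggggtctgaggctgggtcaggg
Uhrf1: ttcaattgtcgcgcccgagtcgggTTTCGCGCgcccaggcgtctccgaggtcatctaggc

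These stretches lie at chr8:75109332-75109391 on the plus strand (Mcm5), chr1:128359780-128359839 on the minus strand (Mcm6), chr5:138172013-138172072 on the minus strand (Mcm7), chrX:93632258-93632317 on the minus strand (Pola1), chr11:98907989-98908048 on the plus strand (Cdc6) and chr17:56304104-56304163 on the plus strand (Uhrf1). The first word began 153 bases before the annotated start in Mcm5, 110 in Mcm6, 165 in Mcm7, 138 in Pola1 and in Cdc6, and 185 in Uhrf1. Not every member with a strong difference held an E2F word in this window. Members not called lower in old IEL held one as well, such as Gins3 (-0.15, within spot error), Cdt1, Rfc3 and Orc1. Mcm10 and Rrm2 follow with the CCAAT box in capitals, which began 98 and 50 bases before the start, at chr2:5012854-5012913 on the minus strand and chr12:24708180-24708239 on the plus strand.
Mcm10: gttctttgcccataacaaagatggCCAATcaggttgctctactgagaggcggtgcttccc
Rrm2: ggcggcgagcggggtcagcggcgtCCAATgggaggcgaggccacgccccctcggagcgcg

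Old IEL CD4+ T cells had less signal than young ones for every member that could be compared, although Rfc2 and Rpa1 changed sign when the arrays were scaled by quantiles or by the 75th percentile. This concerns the old IEL CD4 array alone. Young IEL was above all old IEL arrays, with cd27cd28 and others included, for 24 of the 37 members detected on every array. The log2 differences of the 37 members detected on both arrays ran from -2.61 to -0.01 with a median of -1.14, while the median over all 13757 genes compared was -0.09 and 59.1% of them were below 0. Of the 25 members over 100 on either array, 14 were more than 2-fold lower in old IEL, against 4.07% of all genes over 100, and 0 were higher, against 2.80%. The 14 were Mcm3, Mcm5, Mcm6, Mcm7, Cdc45, Mcm10, Pola1, Prim1, Pold1, Lig1, Tk1, Rrm1, Rrm2 and Uhrf1. Of these, Mcm3, Mcm5, Cdc45, Mcm10, Tk1, Rrm1 and Rrm2 were over 100 on young IEL only, as was Pola2, which was not called. They passed the signal minimum through the array where they were high, so their calls are not independent of it. Gins3, Rfc2 and Rpa1 differed within spot error. Mcm3, Mcm7 and Cdc45 turned to the opposite sign when the local background was removed by the normexp method in place of the blank spots, as did Orc1, Gins2, Pole, Rpa1 and Chaf1b, which were not called.

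In SP CD4+ T cells the same genes differed little with age. The median log2 difference of 38 members was 0.17, against 0.07 for all genes, with 26 members above and 12 below 0. None of the 16 members over 100 was called in either direction, where 4.49% of all genes were called higher and 0.983% lower. The range went from -0.70 for Cdc6 to 0.91 for Mcm6, and 13 members differed within spot error. Cdc45, Mcm4, Pcna and Rfc2, all within spot error, changed sign under quantile or 75th percentile scaling, and 16 members did with normexp.

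The age difference in IEL minus the age difference in SP had a median of -1.36 over 37 members, against -0.17 over all genes. It was past 2-fold in the lower direction for 18 of the 25 members over 100, against 10.5% of all genes, and for 0 in the higher direction, against 2.55%. In 25 of the 37 members (67.6%) the signal was lower in old IEL and higher in old SP, a pattern of 35.7% of all genes. For Mcm3, Mcm4, Mcm7, Cdc45, Pcna, Rfc2 and Rfc3 among them, the difference in SP was within spot error. With 1 array in each of the 4 groups, this difference could not be tested.

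**Figure D1:**
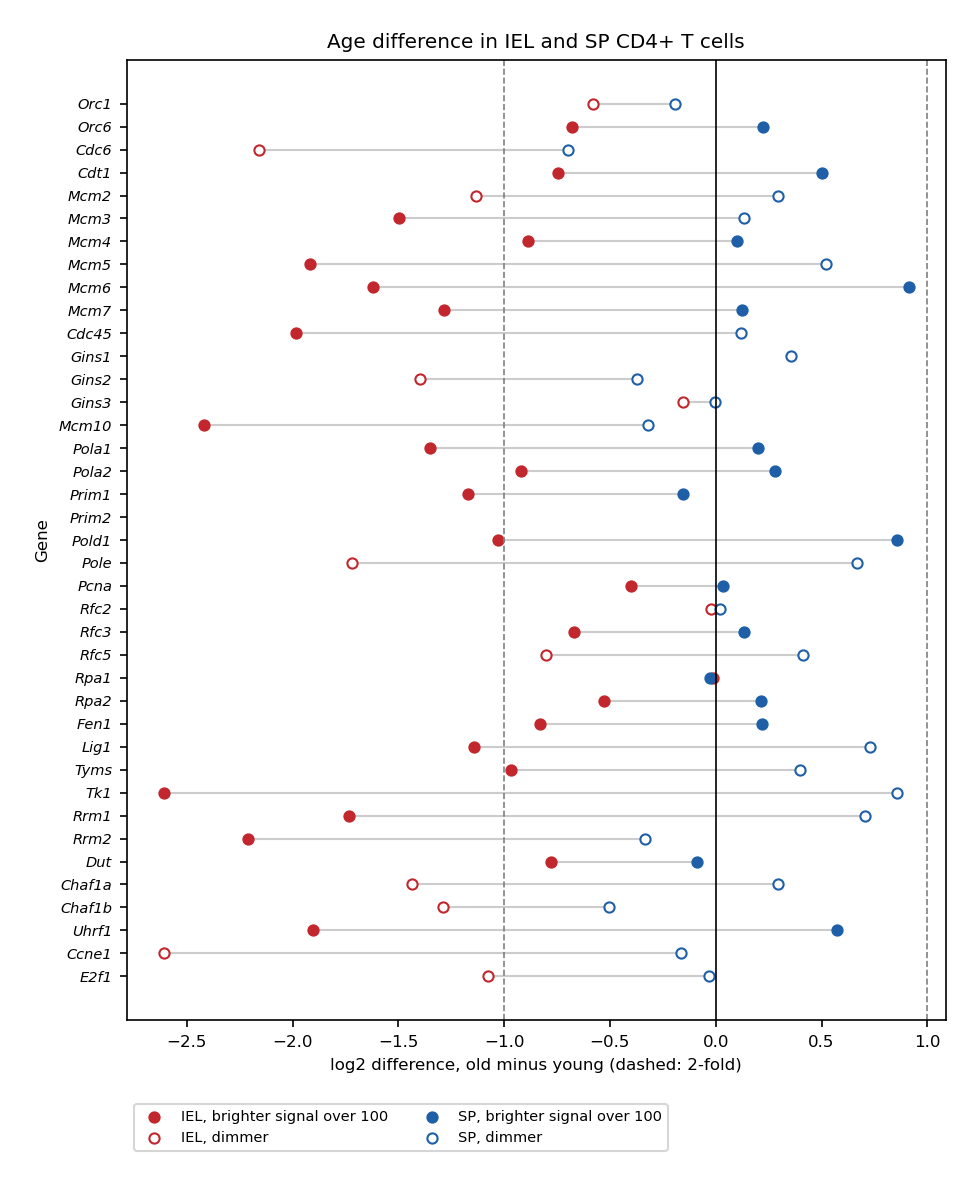
Log2 difference between old and young (x axis) for each of the 39 measured members (y axis) in IEL (red) and SP (blue), 1 array per group. Filled points had a brighter signal over 100, and dashed lines mark 2-fold. The IEL points lie left of 0 down to -2.61 (Rfc2 and Rpa1 change sign with the scaling), while the SP points lie between -0.70 and 0.91; Gins1 lacks an IEL point and Prim2 has none, since they were not detected on every array compared.

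**Figure D2:**
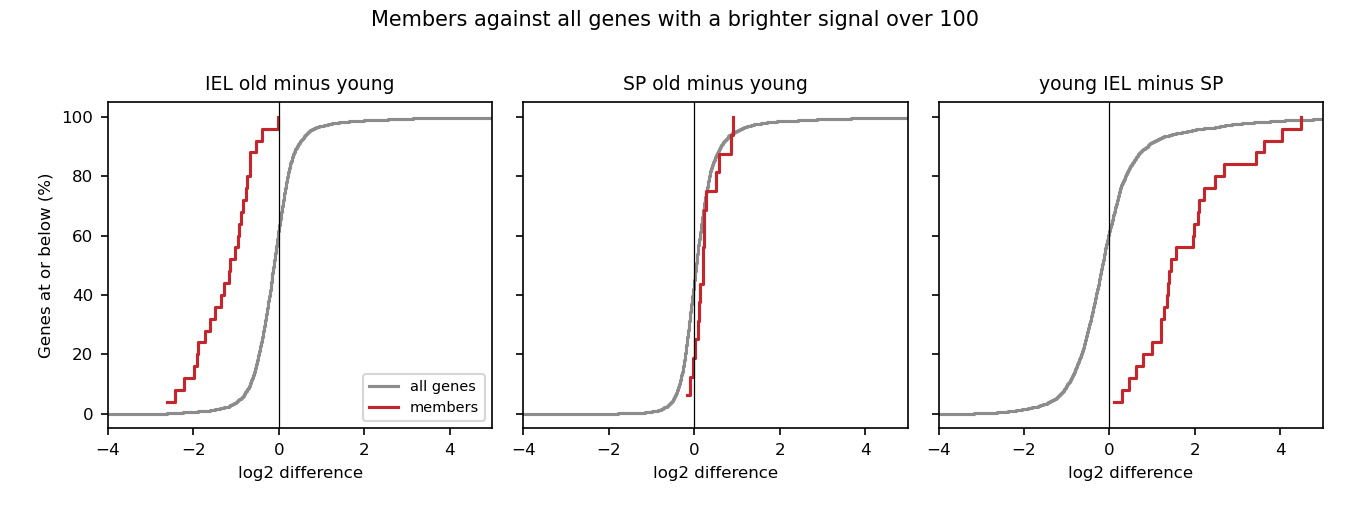
Share of genes at or below a given log2 difference (y axis, percent) for members (red) and all genes (grey) with a brighter signal over 100, in 3 comparisons; the x axis is drawn from -4 to 5. The 25 members lie left of all genes in old against young IEL, close to them in SP (16 members) and right of them in young IEL against young SP (25 members).

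Licensing factors were compared first. Orc1 and Orc6 are subunits of the origin recognition complex, and Cdc6 and Cdt1 load the MCM helicase onto it. Cdc6 had a signal of 29.4 on young IEL, 6.58 on old IEL, 9.82 on young SP and 6.05 on old SP, and 10.9 on cd27cd28 against 19.0 on others. Its log2 difference between old and young was -2.16 in IEL, the largest of the licensing group, and -0.70 in SP, but all of its signals stayed under 100. Orc6 was over 100 on all arrays, with 1059 on young IEL, 660.2 on old IEL, 416 on young SP and 485 on old SP, and 983 on cd27cd28 against 933 on others. It was under 2-fold lower in old IEL (-0.68). Cdt1 had a signal of 243 on young IEL, 145 on old IEL, 197 on young SP and 279 on old SP, and 155 on cd27cd28 against 212 on others. Its highest array was therefore old SP, the only member of which this was true, with differences of -0.75 in IEL and 0.50 in SP. Orc1 was dim on all arrays (12.05 to 21.4) and had a difference of -0.58 in IEL.

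The subunits of the MCM helicase, the ring that unwinds DNA at the fork, were all lower in old IEL, and 4 of the 5 subunits over 100 were called. Mcm5 had a signal of 225 on young IEL, 59.6 on old IEL, 57.8 on young SP and 82.9 on old SP, and 122 on cd27cd28 against 162 on others, so that old IEL lay close to young SP. It was 3.78-fold lower in old IEL, and its log2 difference was 0.52 in SP. Mcm6 had a signal of 414 on young IEL, 135 on old IEL, 105 on young SP and 198 on old SP, and 163 on cd27cd28 against 251 on others. The age differences of Mcm6 were opposite in sign, -1.62 in IEL and 0.91 in SP, and the latter was the highest of all members in SP. Mcm7 had 1848 on young IEL, 759 on old IEL, 920.0 on young SP and 1002 on old SP, and 1479 on cd27cd28 against 1481 on others. Old IEL was the lowest of its 6 arrays, with a difference of -1.28 in IEL that became 1.16 with normexp. Mcm4 had 2416 on young IEL, 1306 on old IEL, 1052 on young SP and 1127 on old SP, and 2210.3 on cd27cd28 against 1979.9 on others, and its difference of -0.89 in IEL stayed under 2-fold. Mcm3 had a signal of 128.01 on young IEL, 45.4 on old IEL, 52.4 on young SP and 57.6 on old SP, and 56.9 on cd27cd28 against 110.3 on others. It was 2.82-fold lower in old IEL, a log2 difference of -1.49 that became 0.17 with normexp. Mcm2, at 17.6 to 38.6, was dim and had a difference of -1.13 in IEL.

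Among the factors that turn the loaded helicase into a moving fork, Mcm10 and Cdc45 were called lower in old IEL. Mcm10 had a signal of 148 on young IEL, 27.6 on old IEL, 6.64 on young SP and 5.32 on old SP, and 51.8 on cd27cd28 against 96.7 on others. It spanned the widest range of all members, with both SP arrays at the bottom, and was 5.36-fold lower in old IEL than in young IEL. Cdc45, a partner of the helicase, had 260 on young IEL, 65.6 on old IEL, 40.2 on young SP and 43.7 on old SP, and 132 on cd27cd28 against 245 on others. The signal on others was close to that on young IEL, and the age difference was -1.99 in IEL, or 0.38 with normexp, and 0.12 in SP. The GINS complex travels with Cdc45 at the fork, and its measured subunits were dim. Gins2 had 20.4 on young IEL, 7.76 on old IEL, 4.31 on young SP and 3.33 on old SP, and 15.2 on cd27cd28 against 16.5 on others. Gins1 had 21.5 on young IEL, was not detected on old IEL, and had 4.14 on young SP and 5.31 on old SP, and 11.2 on cd27cd28 against 16.04 on others. Against the lowest detected signal of the old IEL array, Gins1 was at least 8.63-fold lower there than in young IEL. Gins3 stood apart from both, with 57.1 on young IEL, 51.3 on old IEL, 57.5 on young SP and 57.3 on old SP, and 91.3 on cd27cd28 against 84.4 on others, and its age differences were within spot error.

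Primase starts each new strand and the polymerases extend it. Pola1, the catalytic subunit of polymerase alpha, had a signal of 513 on young IEL, 201 on old IEL, 122 on young SP and 139.9 on old SP, and 385 on cd27cd28 against 407 on others. Young IEL was the highest array and both SP arrays the lowest, and the IEL age difference was -1.35. Prim1, the small subunit of primase, had 412 on young IEL, 183 on old IEL, 159 on young SP and 143 on old SP, and 228 on cd27cd28 against 360.2 on others, which made it 2.25-fold lower in old IEL. Pold1, the catalytic subunit of polymerase delta, had 335 on young IEL, 164 on old IEL, 193 on young SP and 350.1 on old SP, and 531 on cd27cd28 against 400.2 on others. It differed from the others of this group in that young IEL was not its highest array, and its age differences were -1.03 in IEL and 0.86 in SP. Pole, the catalytic subunit of polymerase epsilon, was dim, with 27.3 on young IEL, 8.30 on old IEL, 5.28 on young SP and 8.37 on old SP, and 17.3 on cd27cd28 against 23.4 on others. Its IEL difference of -1.72 had the largest size in this group. Pola2, the second subunit of polymerase alpha, lay between 61.5 on old IEL and 117 on young IEL (-0.92). Prim2, the large subunit of primase, was detected on 3 arrays only, with 7.02 on young IEL, 3.69 on cd27cd28 and 5.39 on others, and was at least 2.81-fold lower in old than in young IEL.

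In old against young IEL the sliding clamp and its loader had a median of -0.54, and the group of single-strand binding and Okazaki fragment genes one of -0.68. Pcna, the clamp that tethers the polymerases, had a signal of 1694 on young IEL, 1282 on old IEL, 1091 on young SP and 1115 on old SP, and 1204 on cd27cd28 against 2093 on others, with an age difference of -0.40 in IEL and of 0.03 in SP. Rfc3, a loader subunit, had 321 on young IEL, 201 on old IEL, 109 on young SP and 119.8 on old SP, and 336 on cd27cd28 against 302 on others. Thus old IEL was still above both SP arrays, and the IEL difference was -0.67. Rfc5 was dim, with 55.1 on young IEL, 31.6 on old IEL, 26.6 on young SP and 35.4 on old SP, and 53.2 on cd27cd28 against 66.6 on others, and had the largest age differences of the group (-0.80 in IEL and 0.41 in SP). Rfc2 ranged from 65.9 to 122 with an IEL difference of -0.02. Rpa1, the large subunit of the single-strand binding protein, had 654 on young IEL, 648 on old IEL, 606 on young SP and 594 on old SP, and 1017 on cd27cd28 against 918 on others. The 4 CD4 arrays were thus nearly level for Rpa1, with a difference of -0.01 in IEL and -0.03 in SP. Rpa2 had 837 on young IEL, 581 on old IEL, 310.3 on young SP and 359.7 on old SP, and 601 on cd27cd28 against 662 on others (-0.53 in IEL). Fen1, the nuclease that trims Okazaki fragments, was also under 2-fold lower, with 499.9 on young IEL and 281 on old IEL (-0.83). Lig1, the ligase that joins them, was the only gene of these groups that was called. Averaged over its 2 probes, Lig1 had a signal of 221 on young IEL, 100.2 on old IEL, 47.6 on young SP and 79.0 on old SP, and 173 on cd27cd28 against 202 on others. The probes agreed in sign and differed in size, with -1.53 and -0.76 in IEL, so that the second alone was under 2-fold.

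Nucleotide synthesis genes had a median of -1.73 in old against young IEL. Tk1, thymidine kinase of the salvage pathway, had a signal of 201 on young IEL, 32.98 on old IEL, 12.3 on young SP and 22.3 on old SP, and 79.7 on cd27cd28 against 149 on others. It was 6.10-fold lower in old than in young IEL, the largest difference among members detected on both arrays together with that of the dim Ccne1, while its log2 difference in SP was 0.86. Rrm2, the small subunit of ribonucleotide reductase, which makes deoxynucleotides, had 119 on young IEL, 25.7 on old IEL, 11.04 on young SP and 8.77 on old SP, and 38.2 on cd27cd28 against 99.5 on others. Young IEL and others were thus well above the remaining 4 arrays, and Rrm2 was 4.63-fold lower in old than in young IEL. Rrm1, the large subunit, had 186 on young IEL, 56.0 on old IEL, 43.8 on young SP and 71.5 on old SP, and 85.7 on cd27cd28 against 117 on others, with age differences of -1.73 in IEL and 0.71 in SP. Tyms, thymidylate synthase, had 372 on young IEL, 190.3 on old IEL, 67.2 on young SP and 88.5 on old SP, and 413 on cd27cd28 against 456 on others. Both old fractions were above young IEL for Tyms, cd27cd28 by less than the spot error. All genes were also higher on these fractions than on old IEL, by medians of 0.62 on cd27cd28 and 0.54 on others. The IEL age difference of Tyms, -0.97, was just under 2-fold. Dut, which removes dUTP from the pool, had 868 on young IEL, 506 on old IEL, 329 on young SP and 309 on old SP, and 850.4 on cd27cd28 against 932 on others (-0.78 in IEL).

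Chromatin has to be rebuilt behind the fork, and Uhrf1, which recruits the maintenance DNA methyltransferase to newly copied DNA, was called lower in old IEL. Uhrf1 had a signal of 864 on young IEL, 231 on old IEL, 69.9 on young SP and 104 on old SP, and 429 on cd27cd28 against 549 on others. All 4 IEL arrays were above both SP arrays, and old IEL was 3.74-fold below young IEL. Chaf1b, a subunit of the histone chaperone CAF-1, was dim at 35.2 on young IEL, 14.4 on old IEL, 24.4 on young SP and 17.2 on old SP, and 27.7 on cd27cd28 against 31.9 on others (-1.29 in IEL). Chaf1a, its partner, was also dim, with 3.80 on old IEL as its lowest and 10.8 on cd27cd28 as its highest signal (-1.44 in IEL). Ccne1, the cyclin that starts S phase, had 28.4 on young IEL, 4.65 on old IEL, 16.9 on young SP and 15.1 on old SP, and 14.2 on cd27cd28 against 26.6 on others. Old IEL stood alone at the bottom, with a difference of -2.61 at signals under 100. E2f1, a transcription factor of this program, had 10.03 on young IEL, 4.76 on old IEL, 9.99 on young SP and 9.76 on old SP, and 13.9 on cd27cd28 against 17.0 on others. Both S phase entry genes were lower in old IEL than in either SP array, which held for 11 of the 37 members detected on all arrays.

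**Figure D3:**
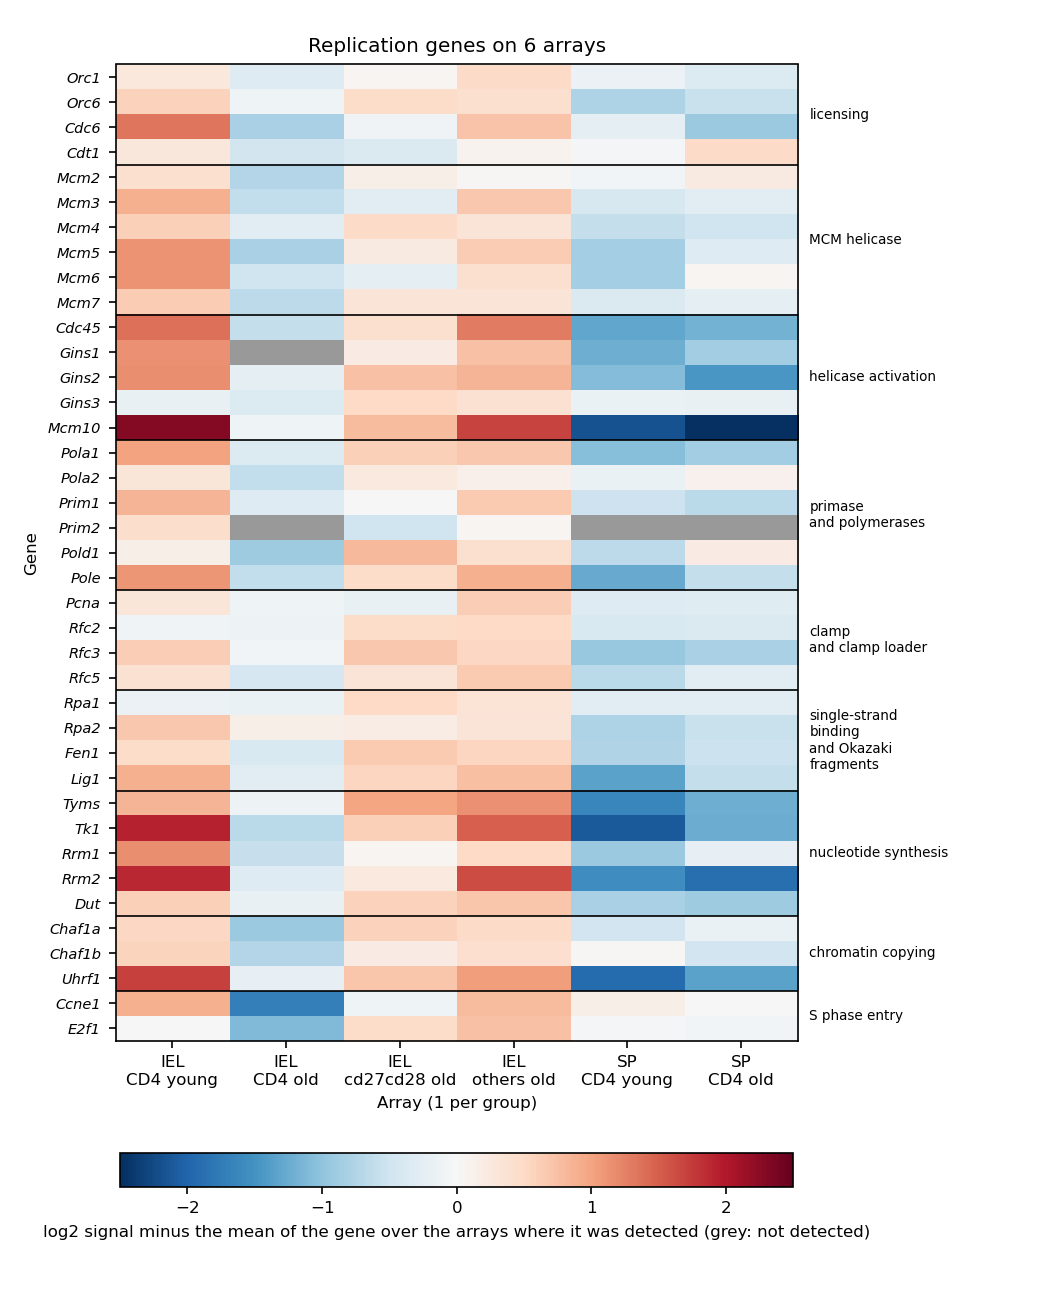
Log2 signal of each of the 39 measured members (rows, grouped by role) on the 6 arrays (columns, 1 per group), minus the mean of the gene over the arrays where it was detected. Red is above and blue below that mean, the colours end at 2.5, and grey marks arrays where the gene was not detected; young IEL and others carry most of the red, and both SP arrays and old IEL most of the blue.

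Young IEL CD4+ T cells had higher signals than young SP CD4+ T cells for 37 of 38 members, with a median log2 difference of 1.36 against -0.27 over all genes. Of the 25 members over 100, 20 were called higher, against 8.38% of all genes, and 0 lower, against 9.57%. Of those called, Mcm3, Mcm5, Cdc45, Mcm10, Lig1, Tyms, Tk1, Rrm1, Rrm2 and Uhrf1 were over 100 on young IEL only, as was the uncalled Pola2. They passed the signal minimum through the array where they were high, so their calls are not independent of it. The largest were Mcm10 (4.48), Tk1 (4.03), Uhrf1 (3.63) and Rrm2 (3.43), and the young SP signals of Mcm10, Tk1 and Rrm2 lay between 6.64 and 12.3. Tyms was 5.53-fold and Cdc45 6.47-fold higher. With normexp 30 of the 38 members were above 0, and 9 changed sign, among them the called Cdc45 (-0.35) and Mcm3 (-0.30) along with Orc1, Gins3, Pole, Pcna, Rfc2, Chaf1a and Ccne1. Gins3, the only member below 0, Rpa1 and E2f1 were within spot error, and Gins3 turned above 0 under quantile or 75th percentile scaling. Both IEL and SP arrays of young mice entered the age comparisons above as well, so these differences are not independent of them.

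In old mice the gap between the tissues was smaller. The median of IEL minus SP was 0.13 over 37 members, with 21 above and 16 below 0, while all genes had a median of -0.45 with 79.9% below 0. Of 18 members over 100, Tyms (1.10) and Uhrf1 (1.15) were called higher, against 5.06% of all genes, and Pold1 (-1.09) lower, against 12.7%. Under quantile or 75th percentile scaling the call of Pold1 was lost, with 0 of 17 members lower and 3 or 5 higher. Of all genes, 351 of 4541 or 405 of 4533 were then called higher, and 289 or 237 lower. Mcm10 was 5.19-fold and Rrm2 2.93-fold higher in old IEL than in old SP at signals under 100. Mcm3, Gins3, Pole, Rfc5, Rrm1 and Chaf1b changed sign under quantile or 75th percentile scaling.

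The additional old IEL fractions gave intermediate to high signals. The mean of the 37 members detected on all arrays, each on the log2 scale and relative to its own mean over the arrays, was 0.77 on young IEL, 0.66 on others, 0.34 on cd27cd28, -0.47 on old IEL, -0.56 on old SP and -0.74 on young SP. The SD over members on an array lay between 0.33 and 0.61, so neighbours in this order overlapped. All genes also differed between these arrays, and their median was higher by 0.62 on cd27cd28 and by 0.54 on others than on old IEL. Young IEL was the highest array for 23 members, others for 7, cd27cd28 for 6 and old SP for 1, and the lowest array was young SP for 18, old IEL for 11 and old SP for 8.

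Fraction cd27cd28 was below others by a median of 0.29 on the log2 scale (-0.29 over 39 members, 29 of them below 0), where all genes had a median of 0.09. None of the 24 members over 100 was called, against 0.665% of all genes higher and 2.81% lower. Rrm2 had the largest difference, -1.38 at signals of 38.2 and 99.5, and 16 members were within spot error, among them Orc6 and Mcm7, which changed sign with the scaling. The array others is also the one with the highest epithelial and myeloid signals given above, whose part in this difference was not tested.

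Against old IEL CD4+ T cells, cd27cd28 was higher by a median of 0.83 over 37 members, but all genes were higher by 0.62, so that only 0.22 remained relative to them. Mcm5, Cdc45, Pold1, Fen1 and Tyms, 5 of 21 members over 100, were called higher, against 9.73% of all genes, and 0 lower, against 1.77%. Mcm5 and Cdc45 had differences of -0.14 and -0.27 with normexp, and of the 2 arrays compared both were over 100 on cd27cd28 only. The array others was higher than old IEL by a median of 1.02, against 0.54 over all genes. Of 24 members over 100, 10 were called higher, against 3.26% of all genes, and 0 lower, against 0.670%. The 10 were Mcm3, Mcm5, Cdc45, Pola1, Pold1, Lig1, Tyms, Tk1, Rrm1 and Uhrf1, of which Tk1 differed most (4.53-fold). Mcm3, Mcm5, Cdc45, Tk1 and Rrm1 passed the signal minimum through others only. Under quantile scaling the median of all genes shifted by -0.58 and -0.56 in these comparisons. Called higher were 1 of 20 and 2 of 22 members over 100, against 40 of 4422 and 41 of 4336 genes. Orc1, Cdt1, Mcm3, Mcm6, Prim1 and Rpa2 then changed sign in cd27cd28 minus old IEL, and Rpa2 in others minus old IEL.

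**Figure D4:**
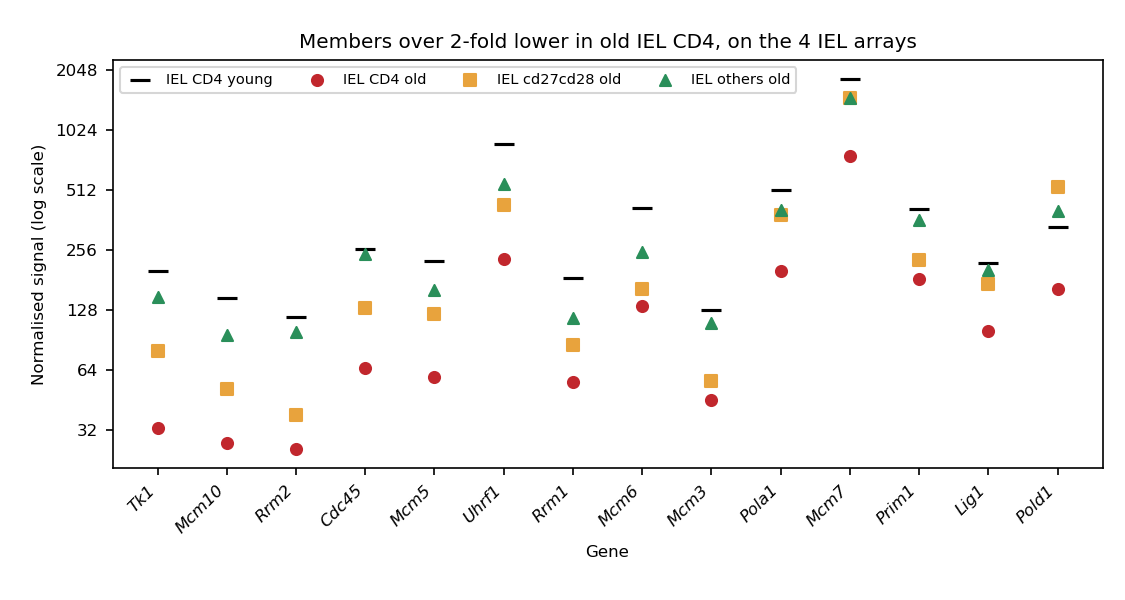
Normalised signal (y axis, log scale) on the 4 IEL arrays for the 14 members called lower in old IEL CD4+ T cells than in young ones (x axis, from the largest to the smallest difference), 1 array per point. Since the 14 were selected for the gap between young IEL (black lines) and old IEL CD4 (red circles), the points to read are those of cd27cd28 and others, which lie above young IEL in Pold1; Mcm3, Mcm6 and Prim1 change sign in cd27cd28 minus old IEL with the scaling.

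Members resembled each other over the arrays to a varying degree. Pearson r between the log2 signals of a member and the mean of the other members, over 6 arrays that also differ in tissue and age, had a median of 0.915 and exceeded 0.9 for 20 of 37 members. Pole (0.989) and Cdc45 (0.989) were closest to the common pattern and Cdt1 (0.07) and Mcm2 (0.49) farthest from it. Among 5029 genes over 100 that were detected on all arrays, the non-members most like the mean of the members were H2ac20 (0.992), H2ac11 (0.989), H2ac22 (0.987), Vps45 (0.986), Asf1b (0.984), Gm16494 (0.984), Ybx1 (0.983), H2ac15 (0.982), Knstrn (0.982) and Dctpp1 (0.981). The H2ac genes are near-identical copies whose probes may share RNA, so their separate values are uncertain. With 6 points these are descriptions only.

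Other genes of the pathway that are not members had medians nearer to 0 in old against young IEL. Of 30 other replication factors, 28 were compared, with a median of -0.46. Of 11 over 100, 2 were called lower, against 4.07% of all genes, and 0 higher, against 2.80%. The 2 called lower were Asf1b, a histone chaperone, from 574 on young to 188 on old IEL (-1.61), and Tipin, a fork protection factor, from 606 to 232 (-1.39). Gmnn, the inhibitor of Cdt1, had a difference of -0.92 and Pold3, a subunit of polymerase delta, of -0.47. Of 18 other nucleotide enzymes, 15 were compared, with a median of -0.48. Against the same shares of all genes, 1 of 8 over 100 was called lower and 0 higher. The enzyme called lower was Samhd1, which degrades deoxynucleotides and thus works against the enzymes above, from 1358 on young to 643 on old IEL (-1.08). The purine synthesis enzymes Atic (-0.56) and Gart (-0.51) and the thymidylate kinase Dtymk (-0.48) stayed under 2-fold.

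Of 17 other regulators of G1 and S phase, 16 were compared, with a median of -0.34. Of 5 over 100, 1 was called lower, against 4.07% of all genes, and 0 higher, against 2.80%. Ccna2, the cyclin of S phase and mitosis, had a signal of 422 on young IEL, 71.6 on old IEL, 13.4 on young SP and 4.68 on old SP, and 126 on cd27cd28 against 299 on others (-2.56 in IEL). The order of the IEL arrays for Ccna2 was that of Tk1. Rbl1, a pocket protein that restrains E2F (-0.77), Cdk4 (-0.68) and Skp2, a ubiquitin ligase subunit (-0.12), were not called. In SP, 0 of the 12, 8 and 5 genes over 100 in these 3 lists were called in either direction. Of all genes, 4.49% were called higher there and 0.983% lower.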

How the data were processed

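The authors scanned each array at 635 nm with 3 gains. The deposited scanner files hold, as intensity, each spot median and its local background, unsubtracted. The deposited value table holds intensity after global normalisation (linear, median 25 per array). Its values were recovered here by subtracting the blank mean (384 spots, 5% trimmed at each end), keeping probes above it by more than 2 SD, and scaling detected probes to a median of 25. The median absolute log2 difference from the table was 0.0037 to 0.0097. Probes of a gene were averaged as log2 signals. Log2 differences cover genes detected on every array compared, and calls needed over 2-fold with the brighter signal over 100. Members, lists and comparisons were chosen with earlier results of these data known. Values on all arrays were printed by rule for the brightest and most different members of each role, for members not detected somewhere and for those called. Up to 4 other genes a list were named by IEL difference and 10 by likeness. Python 3.11.15, which also computed the quantile alternative, R 4.3.3 and limma 3.58.1 (normexp alternative only) were used. The calling steps were also run on simulated data, which says nothing of the variation between animals that 1 array per group leaves out. Alternatives were 9 changes of normalisation, background, pseudocount, source, detection, probe choice and signal minimum. Protein sequences were not used here.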

Additional observations from a re-analysis of the deposited data

Results flagged for a closer look

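The age difference of the members was not the same in the 2 tissues. The median log2 difference was -1.14 in IEL, against -0.09 over all genes, and 0.17 in SP, against 0.07 over all genes. The median of the difference between the tissues was -1.36, against -0.17 over all genes. In 25 of 37 members the signal was lower in old IEL and higher in old SP, a pattern of 35.7% of all genes. Of these 25, Mcm3, Mcm4, Mcm7, Cdc45, Pcna, Rfc2 and Rfc3 were within spot error in SP. Each tissue and age had 1 CD4 array, so the difference was not tested. The further old IEL arrays lay nearer to young IEL, with means relative to each member of 0.66 on others and 0.34 on cd27cd28. Young IEL had 0.77 and old IEL CD4 -0.47, and young IEL was above all old IEL arrays for 24 of 37 members.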

How the results depend on the processing

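No paired analysis was possible because each group has 1 array. The 16 medians and counts of called members were recomputed under 7 or 9 alternatives. Of these values, 87 stayed within 0.180 of a median, the spot error used here as a tolerance only, or within 1.5 times a count. The other 41 follow, and the cause was not tested unless stated. With quantile normalisation, the median was -1.07 for the IEL minus SP age difference, 0.47 for old IEL minus SP, 0.31 for cd27cd28 minus old IEL with 1 member called, and 0.54 for others minus old IEL with 2 called. Relative to the median of all genes, these medians were -1.10, 0.48, 0.28 and 0.57. With 75th percentile scaling, the same comparisons had -1.16, 0.52 with 5 called, 0.36 with 1 called and 0.52 with 2 called, and young IEL minus SP was 1.55. Relative to the median of all genes, they were -1.19, 0.58, 0.22, 0.48 and 1.64, unchanged from the main setting. This scaling thus moved the members and all genes together. Of all genes, 44 of 4430 were then called higher in cd27cd28 minus old IEL and 38 of 4324 in others minus old IEL. With normexp, which subtracts a local background that follows the spot signal (r of 0.958 to 0.982 on each array), the IEL age median was -0.55 with 9 called (1 higher, 8 lower), 1 member was called in SP, the IEL minus SP age difference was -0.41 with 9 called, young IEL minus SP 0.60 with 7 called, old IEL minus SP had 5 called, cd27cd28 minus others was -0.010 with 1 called, cd27cd28 minus old IEL 0.063 with 2 called and others minus old IEL 0.077 with 2 called. Among called members, signs turned with normexp in the IEL age difference of Mcm3 (0.17), Mcm7 (1.16) and Cdc45 (0.38), in the IEL minus SP age difference of Mcm3 (0.29), Mcm7 (2.65) and Cdc45 (0.52), in young IEL minus SP of Mcm3 (-0.30) and Cdc45 (-0.35), and in cd27cd28 minus old IEL of Mcm5 (-0.14) and Cdc45 (-0.27). Counting members not called, signs turned for 8, 6, 9 and 12 members in these comparisons, and for 16 in SP, 12 in old IEL minus SP, 9 in cd27cd28 minus others and 10 in others minus old IEL. All genes called higher and lower with normexp were 135 and 452 of 1462 in the IEL age comparison and 201 and 278 of 1295 in SP. They were 277 and 640 of 1654 in the IEL minus SP age difference and 496 and 168 of 1505 in young IEL minus SP. In old IEL minus SP they were 240 and 245 of 1269, and in cd27cd28 minus others 176 and 94 of 1482. Against old IEL they were 418 and 66 of 1445 for cd27cd28 and 261 and 91 of 1326 for others. With 16 added before log2, which pulls dim genes towards 0, the IEL age median was -0.83, the IEL minus SP age difference -1.003, young IEL minus SP 1.05, cd27cd28 minus old IEL 0.55 with 2 called, and others minus old IEL 0.80. With no signal minimum, 22 members were called in the IEL age comparison, 8 in old IEL minus SP, 1 in cd27cd28 minus others, 10 in cd27cd28 minus old IEL and 20 in others minus old IEL, and with a minimum of 200, 3 and 6 in the last 2. The shares of all genes called at these other minimums are not given here, so these counts stand without a background. Among all genes, the IEL age calls went from 114 higher and 166 lower to 152 and 148 with quantile normalisation. The lowest detected signal of an array was between 1.80 and 2.49, and dim members such as Gins1, Prim2 and Chaf1a lay closest to it.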
